A study of Mus musculus with 14 samples.

Results

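Endothelial cells line the arterioles and sinusoids of the bone marrow (BM), and this report describes genes that mark them in BM stromal cells (BMSCs) sorted as negative for CD31, the endothelial surface protein encoded by Pecam1. The genes were named by symbol, with no threshold on a measured value: Pecam1, Cdh5, Kdr, Flt1, Tek, Emcn, Eng, Egfl7, Ly6a and Cldn5. Of these 10 genes, 7 (Pecam1, Flt1, Tek, Emcn, Eng, Egfl7 and Ly6a) were analysed, out of 27099 rows of gene counts, and Cdh5, Kdr and Cldn5 were not analysed here. RNA sequencing was performed on cells carrying the Nestin-GFP reporter, in which green fluorescent protein follows regulatory elements of the nestin gene, separated into Nes-GFP high and Nes-GFP low fractions.

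There were 2 libraries of AML Nes-GFP high BMSCs, 4 of Nes-GFP low BMSCs from AML mice, 2 of Nes-GFP high BMSCs from normal mice and 6 of Nes-GFP low BMSCs from normal mice. AML mice were primary, non-transplanted iMLL-AF9 mice, which carry rtTA at the ROSA26 locus and the human MLL-AF9 fusion under a tetracycline-response element, crossed with the Nestin-GFP reporter, and were killed when doxycycline-induced leukemia was evident from the white blood cell count. Normal mice carried the reporter and drank sucrose water as vehicle, so that AML and doxycycline exposure cannot be told apart. Mice in the study were 8 to 12 weeks old. All cells were taken from collagenase-treated crushed bone after red cell lysis as GFP+ CD45- CD31- DAPI- cells, and the study's methods add Ter119, an erythroid surface marker, to those selected against. Some libraries were pools of 2 mice and which ones they were is not given in the sources used here, so each library was taken as 1 replicate.

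In vessels, PECAM1 joins neighbouring endothelial cells and is also carried by platelets, monocytes and neutrophils. FLT1 (VEGF receptor 1) and TEK (the angiopoietin receptor TIE2) are tyrosine kinases that receive signals which stromal cells can secrete, and endoglin (Eng) is a co-receptor for TGF-beta and BMP ligands that is found on mesenchymal stromal cells as well as on endothelium. Endomucin (Emcn) is a surface sialomucin of sinusoidal and venous endothelium, EGFL7 is a matrix protein secreted by endothelial cells and also found in hematopoietic progenitors, and Ly6a encodes Sca-1, a GPI-anchored protein of arteriolar endothelium, hematopoietic stem cells and some mesenchymal cells.

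In GRCm38 the genes analysed lie at chr2:32646595-32682669 (Eng), chr2:26580014-26593120 (Egfl7), chr15:74994877-74998031 (Ly6a), chr11:106654217-106750628 (Pecam1), chr5:147561604-147726011 (Flt1), chr4:94739289-94874976 (Tek) and chr3:137341067-137432185 (Emcn), as annotated in GENCODE mouse release 21. RefSeq promoter windows, from 250 bases before to 50 bases after a gene start in GRCm38.p6, were available for 5 of the 7 genes. The promoters of 3 genes are shown because their genes differed most in how many libraries held them: Eng was counted in all 14 libraries, Tek in 2, and Emcn above 1 CPM (counts scaled to 1000000 per library) in 1. Capitals mark CAGGAA on either strand (TTCCTG when read on the other strand), a 6-base sequence holding the core bound by ETS-family factors, many of which act in endothelial cells. The windows are chr2:32646345-32646644 (Eng), chr4:94739039-94739338 (Tek) and chr3:137340828-137341127 (Emcn), all on the + strand.
Eng: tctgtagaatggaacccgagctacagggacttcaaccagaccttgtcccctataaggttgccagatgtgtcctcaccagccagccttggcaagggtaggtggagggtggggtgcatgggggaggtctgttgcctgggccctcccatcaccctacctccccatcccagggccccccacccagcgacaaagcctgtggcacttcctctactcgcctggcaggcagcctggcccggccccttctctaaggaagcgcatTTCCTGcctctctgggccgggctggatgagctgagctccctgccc
Tek: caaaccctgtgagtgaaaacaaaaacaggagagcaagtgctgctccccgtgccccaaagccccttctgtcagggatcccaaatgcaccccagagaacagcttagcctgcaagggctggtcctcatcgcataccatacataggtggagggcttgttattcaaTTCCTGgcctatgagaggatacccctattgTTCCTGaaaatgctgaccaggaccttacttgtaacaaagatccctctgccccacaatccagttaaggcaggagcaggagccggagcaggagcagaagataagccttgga
Emcn: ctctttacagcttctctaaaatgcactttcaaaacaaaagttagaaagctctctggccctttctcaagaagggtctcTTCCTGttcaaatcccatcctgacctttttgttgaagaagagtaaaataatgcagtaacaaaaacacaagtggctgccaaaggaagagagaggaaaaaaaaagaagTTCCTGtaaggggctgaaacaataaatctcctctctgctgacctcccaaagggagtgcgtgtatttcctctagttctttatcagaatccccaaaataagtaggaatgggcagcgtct
CAGGAA occurred 1 time in the window of Eng and 2 times each in those of Tek and Emcn. Of the 3 start sites of Egfl7, the window of one held it 2 times, that of another 1 time and the remaining window 0 times, and it was not found in the window of Flt1. Of all 32851 mouse promoter windows of this length, 30.6% held CAGGAA on either strand. A second such sequence, CCGGAA, was in none of the 7 windows of these genes and in 14.9% of all windows.

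The libraries held between 5615941 and 11436652 counts, and 14842 to 20197 genes had at least 1 count. Nes, the gene whose regulatory elements drive the reporter, was at 32.3 and 26.7 CPM in AML Nes-GFP high BMSCs, against 0 to 5.70 CPM in Nes-GFP low BMSCs from AML mice, and at 2.27 and 36.0 CPM in Nes-GFP high BMSCs from normal mice, against 0 to 1.29 CPM in Nes-GFP low BMSCs from normal mice. Nes in normal high replicate 1 (2.27 CPM) was above the normal Nes-GFP low libraries but below the highest AML Nes-GFP low library (5.70 CPM). It was also far below the other Nes-GFP high libraries, and results that rest on this library are also given without it. All libraries held stromal transcripts, with 10 to 12 of 12 stromal markers at 1 CPM or more and a summed level of 976 to 83900 CPM. They also held hematopoietic transcripts beside the CD45- and Ter119- gates: 11 or 12 of 12 granulocyte and monocyte markers were at 1 CPM or more in every library, with a summed level of 717 to 102000 CPM, and erythroid, lymphocyte and megakaryocyte lists reached 3170, 1460 and 84.3 CPM. Ptprc, which encodes CD45, was highest in 3 Nes-GFP low libraries, at 447 CPM in AML replicate 3 and at 476 and 483 CPM in normal replicates 3 and 4, and was between 3.95 and 184 CPM in the other 11. In sorted populations such as these, fewer cells of a type and less RNA per cell cannot be told apart.

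The 7 genes fell into 2 kinds by their median level. Eng and Ly6a were counted in every library and together made up between 74.0% and 99.8% of the summed CPM of the 7 genes. The other 5 genes summed to between 0.284 and 51.3 CPM in a library. Flt1, Tek and Emcn were at 1 CPM or more in at most 2 libraries. Pecam1, which also had counts in every library, was so in 7 libraries and Egfl7 in 6. Between 2 and 5 of the 7 genes were at 1 CPM or more in any one library.

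**Figure D1:**
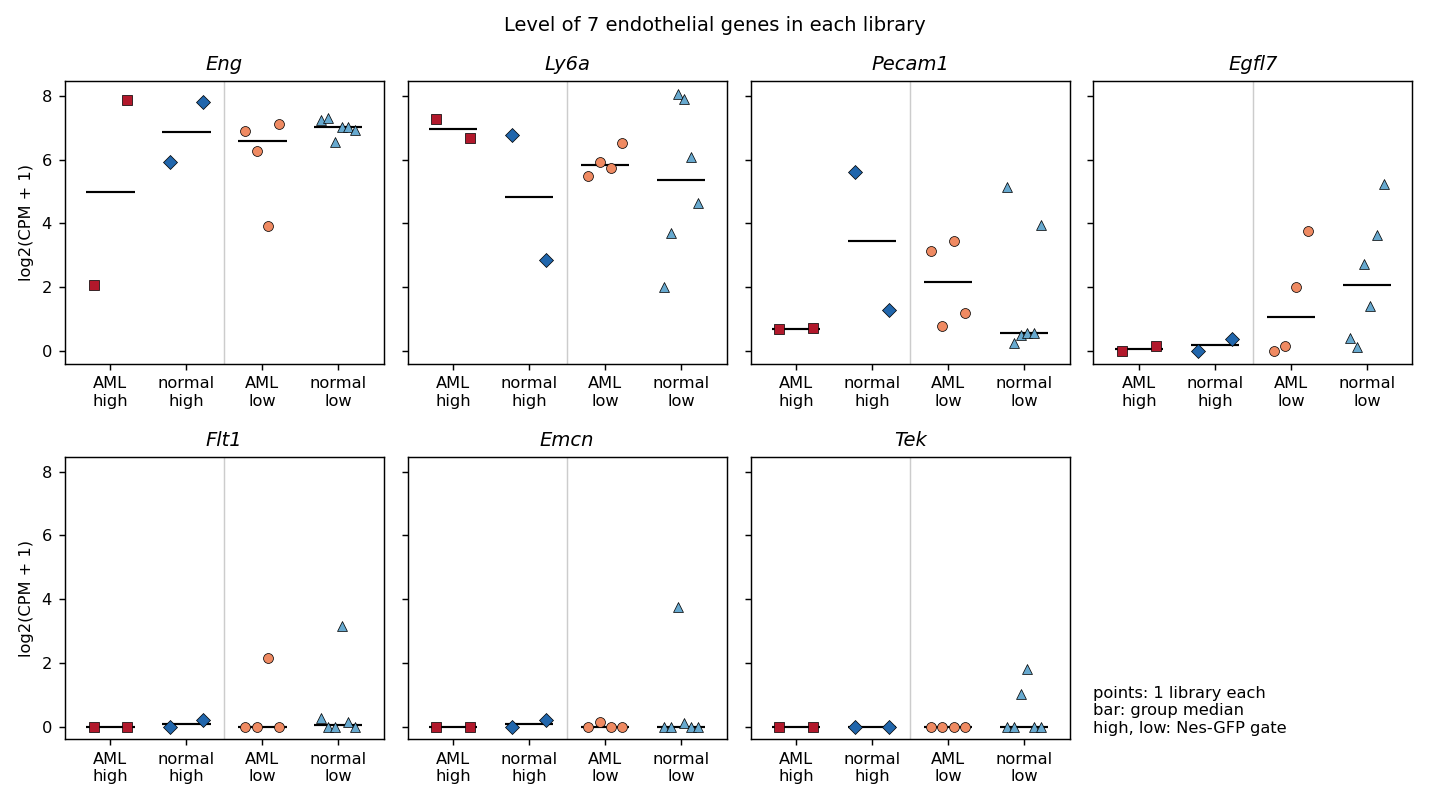
Each panel plots one gene, with log2(CPM + 1) on the vertical axis and the 4 groups on the horizontal axis (AML left of normal within each Nes-GFP gate); points are single libraries and bars are group medians. Eng and Ly6a are high in nearly all libraries, whereas Flt1, Emcn and Tek lie at or near 0 in all but 1 or 2 libraries.

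Set against all genes per kilobase of exon, so that genes of different length can be compared, the median level of Ly6a was 52.6 CPM per kb, at the 95.7th percentile of 25975 genes in the median library, and that of Eng was 31.0 CPM per kb, at the 91.7th percentile. The median level of Pecam1 was 0.161 CPM per kb (44.4th percentile) and that of Egfl7 was 0.0845 CPM per kb (38.7th percentile). Flt1, Tek and Emcn had median levels of 0 CPM per kb. Their highest levels were 0.591, 0.526 and 2.29 CPM per kb. In the order of median levels per length, Ly6a stood above Eng, but their ranges over the libraries overlapped (2.49 to 222 CPM per kb for Ly6a and 0.796 to 57.2 CPM per kb for Eng), as did those of Pecam1 and Egfl7 (0.0304 to 7.63 and 0 to 10.3 CPM per kb).

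Pecam1, which encodes the protein the sort selected against, was not counted evenly. It was at 0.619 and 0.628 CPM (5 and 6 counts) in AML Nes-GFP high BMSCs and at 47.5 and 1.42 CPM (377 and 10 counts) in Nes-GFP high BMSCs from normal mice. Among Nes-GFP low BMSCs it was at 7.84, 0.700, 9.98 and 1.30 CPM in AML mice, against a lowest value of 0.189, a median of 0.463 and a highest value of 34.4 CPM in normal mice. Thus 5 libraries stood above 5 CPM (AML low replicates 1 and 3, normal high replicate 1 and normal low replicates 1 and 6), and the other 9 were at 1.42 CPM or below. Ptprc was at 81.8, 447, 109, 4.82 and 3.95 CPM in these 5 libraries, in that order, whereas the normal low libraries with 476 and 483 CPM of Ptprc had 0.405 and 0.459 CPM of Pecam1. In the AML low library with 447 CPM of Ptprc, the part of leukocytes in its Pecam1 was not tested.

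The Nes-GFP high BMSCs did not overlap between AML and normal mice for Pecam1, but the normal pair itself differed 47.5 to 1.42 CPM. The log2 fold change was -5.26 ± 2.74 (SE, AML over normal, edgeR adjusted p = 0.450), and DESeq2 gave -5.35 ± 2.13 with an adjusted p of 0.0879. Without normal replicate 1, which held most of the Pecam1 counts and little Nes, the log2 fold change by edgeR was -1.06. In Nes-GFP low BMSCs the log2 fold change was -0.76 ± 1.5 (AML over normal, edgeR adjusted p = 1), and it was 0.63 when normal low replicate 1 was left out. Nes-GFP high over low gave -2.97 ± 2.33 in AML mice (edgeR adjusted p = 0.696). There the groups did not overlap, but only narrowly (at most 0.628 CPM or 6 counts in high, at least 0.700 CPM or 7 counts in low). In normal mice high over low was 1.54 ± 1.73 (edgeR adjusted p = 0.779), where the sign turned to -2.71 without normal high replicate 1. The AML effect in high minus that in low BMSCs was -4.51 ± 2.91 for Pecam1 (edgeR adjusted p = 0.685), and -0.30 without normal high replicate 1.

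Egfl7 was counted in Nes-GFP low libraries and hardly at all in Nes-GFP high ones. It was at 0 and 0.105 CPM in AML Nes-GFP high BMSCs, against 0, 0.1, 3.05 and 12.5 CPM in Nes-GFP low BMSCs from AML mice. It was at 0 and 0.284 CPM in Nes-GFP high BMSCs from normal mice, against a lowest value of 0.0945, a median of 3.66 and a highest value of 36.7 CPM in Nes-GFP low BMSCs from normal mice. The low groups reached far above the high groups but also overlapped them, since 2 of 4 AML low and 2 of 6 normal low libraries had 3 counts or fewer. With all counts of a group summed, Nes-GFP high BMSCs had 1 count and Nes-GFP low BMSCs 111 counts in AML mice, a ratio of scaled counts of 0.0187 (95% exact interval 0.00047 to 0.107), and in normal mice Nes-GFP high BMSCs had 2 counts and Nes-GFP low BMSCs 563 counts, a ratio of 0.0145 (0.00175 to 0.0527). Single libraries supplied most counts of the low groups (77 of 111 in AML low replicate 4 and 363 of 563 in normal low replicate 6), and without them, a choice made after seeing the data, the ratios were 0.0509 (0.00125 to 0.303) and 0.0343 (0.00412 to 0.125). Egfl7 passed the filter on low counts only through the Nes-GFP low libraries, so these ratios are descriptions. The intervals cover counting error only, and across libraries the comparison did not pass: edgeR adjusted p was 0.585 in AML mice and 0.478 in normal mice, and DESeq2 adjusted p was 0.158 and 0.0688.

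Between AML and normal mice, Egfl7 in Nes-GFP low BMSCs had a log2 fold change of -1.25 ± 1.70 (edgeR adjusted p = 1), which was 0.03 without normal low replicate 6, the library with the highest value. In Nes-GFP high BMSCs both groups were at the floor of 3 counts or under it in each library, and no fold is given. Of the 50-base stretches in Egfl7 transcripts, 5.33% also occur in transcripts of other genes, 4.33% in the overlapping gene model Gm20532. Some of its counts may depend on how overlapping reads were assigned, and that part was not tested.

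Flt1 was counted in earnest in 2 of 14 libraries. Both Nes-GFP high libraries of AML mice had 0 counts, and those of normal mice 0 and 1 count. In Nes-GFP low BMSCs it was at 0, 0, 3.42 and 0 CPM in AML mice, against a lowest value of 0, a median of 0.0468 and a highest value of 7.98 CPM in normal mice. Both libraries with Flt1 (AML low replicate 3 with 37 counts and normal low replicate 4 with 87 counts) were among the 3 with the most Ptprc. The remaining library of those 3, normal low replicate 3 with 476 CPM of Ptprc, had 0 counts of Flt1. The part of leukocytes in the counts of Flt1 was not tested. The log2 fold change in Nes-GFP low BMSCs was -0.67 ± 2.08 (AML over normal, edgeR adjusted p = 1), with a single library per group behind it. No fold is given for the comparisons with Nes-GFP high BMSCs, since these were at or under the floor.

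Tek and Emcn were too low to pass the filter on low counts and entered the test only without a filter or when a Nes-GFP high library was left out, without a call. Tek had counts in 2 libraries, with 10 counts (1.01 CPM) in normal low replicate 3 and 27 counts (2.48 CPM) in normal low replicate 4, and 0 counts in the other 12, which include all 6 AML libraries. Emcn was at 12.4 CPM (122 counts) in normal low replicate 3 and had at most 1 count in each of the other 13 libraries. A library without counts allows up to 3 counts, which is 0.372 CPM in AML high replicate 1. Normal low replicates 3 and 4 were the normal low libraries with the most Ptprc, and normal low replicate 3 alone held both Emcn and Tek at 1 CPM or more (normal low replicate 4 had 1 count of Emcn). Where Emcn was highest, Pecam1 was at 0.405 CPM and Flt1 at 0 CPM. No library held Pecam1, Flt1, Tek, Emcn and Egfl7 together at 1 CPM or more.

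Eng was even in Nes-GFP low BMSCs of normal mice and spread widely in AML mice. In Nes-GFP low BMSCs it was at 118, 77.0, 14 and 137 CPM in AML mice, against a lowest value of 93.5, a median of 130 and a highest value of 158 CPM in normal mice, and the groups overlapped. In Nes-GFP high BMSCs it was at 3.22 and 232 CPM in AML mice and at 59.8 and 224 CPM in normal mice, so that the spread within a pair was larger than the difference between pairs. Only 2 libraries, both from AML mice, fell below 50 CPM: AML high replicate 1 (26 counts) and AML low replicate 3 (151 counts). The summed level of 12 stromal markers was 6590 CPM in AML high replicate 1 and 976 CPM in AML low replicate 3, the lowest of all. The sum was also below 6590 CPM in normal low replicate 5 (6470 CPM) and AML low replicate 2 (3230 CPM). Eng was at 130 and 77.0 CPM in those libraries. The part of stromal content in the values of Eng was not tested.

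The log2 fold change of Eng was -0.27 ± 1.27 in Nes-GFP high BMSCs (AML over normal, edgeR adjusted p = 1) and -0.60 ± 0.83 in Nes-GFP low BMSCs (edgeR adjusted p = 1). Nes-GFP high over low was 0.44 ± 1.08 in AML mice (edgeR adjusted p = 0.940) and 0.12 ± 1.03 in normal mice (edgeR adjusted p = 0.989). Leaving out AML high replicate 1 gave 0.70 for AML over normal in Nes-GFP high BMSCs, and leaving out normal high replicate 2 gave 0.93. In AML mice Nes-GFP high over low was -4.73 without AML high replicate 2, and in normal mice it was -1.06 without normal high replicate 2. Without normal high replicate 1, the library with little Nes, AML over normal was -0.79 in Nes-GFP high BMSCs and Nes-GFP high over low was 0.63 in normal mice. The direction of Eng therefore rested on single libraries in the comparisons with Nes-GFP high BMSCs.

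Ly6a was counted in every library over a range of 3 to 267 CPM. It was at 155 and 101 CPM in AML Nes-GFP high BMSCs and at 109 and 6.24 CPM in Nes-GFP high BMSCs from normal mice. Among Nes-GFP low BMSCs it was at 44.0, 59.3, 52.8 and 91.6 CPM in AML mice, against a lowest value of 3, a median of 45.5 and a highest value of 267 CPM in normal mice. The AML libraries lay within 44.0 to 155 CPM, whereas the normal libraries spread both below and above that range. In AML mice the Nes-GFP high libraries were both above all 4 Nes-GFP low ones, with a log2 fold change of 1.05 ± 1.34 (high over low, edgeR adjusted p = 0.850).

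The other comparisons of Ly6a overlapped. The log2 fold change was 1.15 ± 1.61 in Nes-GFP high BMSCs (AML over normal, edgeR adjusted p = 0.907), -0.72 ± 1.05 in Nes-GFP low BMSCs (edgeR adjusted p = 1) and -0.82 ± 1.37 for Nes-GFP high over low in normal mice (edgeR adjusted p = 0.880). The AML effect in high minus that in low BMSCs was 1.87 ± 1.93 (edgeR adjusted p = 0.936). Without normal high replicate 1, these were 4.46 (AML over normal, Nes-GFP high), -4.17 (high over low, normal) and 5.21 (AML effect in high minus that in low), and without normal high replicate 2 they were 0.18, 0.16 and 0.90. None passed the test, in which the remaining normal high library was assumed to vary like the libraries of the other groups, as in every fit here that leaves a pair with 1 library. The 2 highest values, 267 and 239 CPM, were those of normal low replicates 3 and 4, which had the most Ptprc. AML low replicate 3, next with 447 CPM of Ptprc, had 52.8 CPM of Ly6a. When the 3 libraries with the most Ptprc were left out, a choice made after seeing the data, AML over normal in Nes-GFP low BMSCs was 1.30 (edgeR adjusted p = 1) and Nes-GFP high over low in normal mice was 1.13 (edgeR adjusted p = 0.844), so that both changed sign. Of the 50-base stretches in Ly6a transcripts, 15% also occur in Ly6c1, and 19.0% occur in any other gene. This is a share of sequence, and the part of Ly6a counts affected was not tested. For Pecam1, Flt1, Tek, Emcn and Eng the shared part was at most 1.54%.

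**Figure D2:**
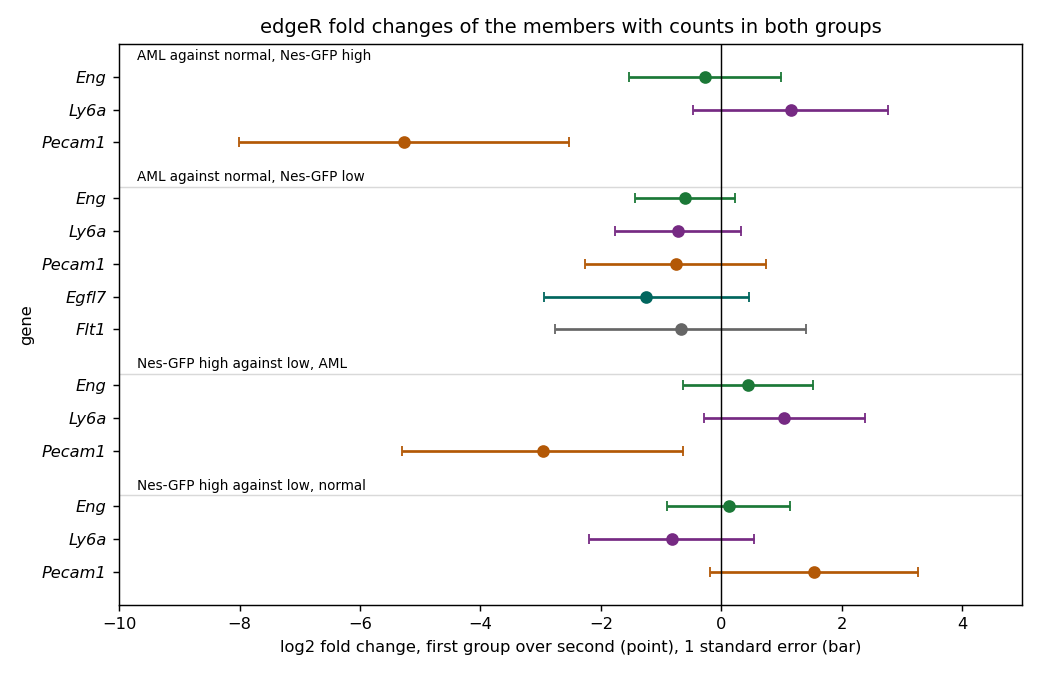
The horizontal axis gives the log2 fold change by edgeR, first named group over second, with 1 standard error as bar, for each gene with more than the floor of counts in both groups of a comparison. The bars of all but 2 points cross 0, and these 2 are values of Pecam1, -5.26 in Nes-GFP high BMSCs (AML over normal) and -2.97 in AML mice (high over low).

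Across the 5 comparisons edgeR called 0 of the 5 genes that passed the filter (Pecam1, Flt1, Eng, Egfl7 and Ly6a) at an adjusted p under 0.05, and it called 0.0% of the 18152 genes tested in each comparison. At an unadjusted p under 0.05 it had 0 of the 5, beside 12.2% of all genes for AML over normal in Nes-GFP high BMSCs, 5.54% in Nes-GFP low BMSCs, 8.97% for high over low in AML mice, 11.2% in normal mice and 9.96% for the difference of the AML effect. DESeq2 also called 0 of these genes, and gave no p for Flt1, beside a share of all genes called of 10.5% for AML over normal in Nes-GFP high BMSCs, 0.681% for AML over normal in Nes-GFP low BMSCs, 7.05% for Nes-GFP high over low in AML mice, 11% for Nes-GFP high over low in normal mice and 5.06% for the difference of the AML effect. By DESeq2, 1 of these genes had an unadjusted p under 0.05 in Nes-GFP high BMSCs (AML over normal, Pecam1) and in high over low of AML and of normal mice (Egfl7 both times). Since Egfl7 passed the filter only through the Nes-GFP low libraries, its p for high over low cannot count as evidence of a difference. In Nes-GFP low BMSCs all 5 genes had a log2 fold change below 0 (AML over normal), with a median of -0.72, beside a median of 0.0034 over all genes. By voom 4 were below 0 and 1 above, Flt1 rested on a single library in each group, and the signs of Pecam1, Egfl7 and Ly6a turned under the settings given above for each.

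Groups that did not overlap were found for 1 of the 7 genes in Nes-GFP high BMSCs (Pecam1, lower in AML mice), where 11.5% of the genes tested were lower and 16% higher without overlap. In AML mice, Nes-GFP high against low gave 1 gene lower (Pecam1, by the narrow margin given above) and 1 higher (Ly6a) without overlap, beside 8.83% and 6.91% of the genes tested. For AML against normal Nes-GFP low BMSCs, 0 of 7 were without overlap (0.667% lower and 0.441% higher of the genes tested), and the same count of 0 held for Nes-GFP high against low in normal mice (7.86% lower and 3.47% higher).

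Other endothelial genes showed how widely such transcripts were spread. Of 39 further genes listed as endothelial, 1 (S1pr1, a sphingosine-1-phosphate receptor) was at 1 CPM or more in all 14 libraries, 12 were so in 7 libraries or more, and 17 in 3 libraries or fewer. The median over the libraries was under 1 CPM for 27 of the 39 and at least 10 CPM for 6. The genes with the highest mean levels were S1pr1 (131 CPM), the adhesion receptor Adgrf5 (101 CPM) and Cd34 (48.6 CPM), which is also found in hematopoietic progenitors and fibroblasts. Some of the listed genes were near 0 in every library: Tie1, the partner of TEK, reached at most 1.30 CPM, the junction protein Esam 2.98 CPM, the phosphatase Ptprb 0.652 CPM and the apelin receptor Aplnr 0.0924 CPM. Others were not: Ramp2, part of the adrenomedullin receptor, was at 10 CPM or more in 10 libraries (at most 195 CPM), Clec14a in 6 (31.9 CPM), Icam2 in 5 (23.1 CPM) and Plvap in 3 (31.6 CPM), and Mmrn2 had counts in 1 library alone (11.6 CPM, normal low replicate 5). These 9 genes were named after their values were seen.

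At 1 CPM or more were 6 and 14 of the 39 genes in Nes-GFP high BMSCs against 13 to 20 in Nes-GFP low BMSCs of AML mice, and 5 and 10 against 13 to 19 in normal mice, so that the gates overlapped in AML mice. Over all rows, 45.3% and 45.9% were at 1 CPM or more in Nes-GFP high BMSCs against 48.1% to 54% in Nes-GFP low BMSCs of AML mice, and 40.3% and 45.2% against 49% to 56% in normal mice, and the part of this in the counts of endothelial genes was not tested. The summed level did not follow these counts: it was 135 and 1100 CPM in Nes-GFP high BMSCs against 321 to 473 CPM in Nes-GFP low BMSCs of AML mice, and 133 and 886 CPM against 130 to 861 CPM in normal mice. Of the 28 listed genes that were tested, edgeR called 0 in each comparison, with 5 at an unadjusted p under 0.05 for AML over normal in Nes-GFP high BMSCs, 3 in Nes-GFP low BMSCs, 2 for Nes-GFP high over low in AML mice, 4 in normal mice and 4 for the difference of the AML effect, beside the shares of all genes at that p given above. For AML over normal in Nes-GFP high BMSCs, DESeq2 called 3 higher (Fli1, Plvap and Selp) and 3 lower (Bmx, Calcrl and Icam2). It called 0 in Nes-GFP low BMSCs. For high over low it called 3 lower in AML mice (Cd34, Cd93 and Icam2) and 3 lower in normal mice (Cd93, Fli1 and Plvap). For the difference of the AML effect it called 1 higher (Plvap) and 2 lower (Calcrl and Icam2). These stand beside the shares of all genes called by DESeq2 given above. In the high over low calls the Nes-GFP high libraries were at 1.67 CPM or below. The low libraries were uneven, with Cd34 at 1.8 to 139 CPM in AML mice and Fli1 at 0 to 65.3 CPM in normal mice. Normal high replicate 2 alone was at 1.13 (Cd93), 0.709 (Fli1) and 0.425 CPM (Plvap). Fli1, an ETS-family factor of endothelial and blood cells, was at 33.2 and 32.3 CPM in AML Nes-GFP high BMSCs, against 0 and 0.709 CPM in those from normal mice. Plvap, a protein of fenestrated endothelium, was at 31.6 and 0.105 CPM in the same AML libraries against 0 and 0.425 CPM in the normal ones, so that a single library carried its call. The same held for Selp (0 and 35.6 CPM in the AML pair against 0 in both normal libraries), Bmx (1.36 and 0.942 CPM against 0 and 107 CPM), Calcrl (0.496 and 0.628 CPM against 0.126 and 97.4 CPM) and Icam2 (0.124 and 0 CPM against 20.8 and 0 CPM). The call of Icam2 rested on normal high replicate 1, without which Icam2 was at 0 CPM in the normal pair and no fold is given.

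**Figure D3:**
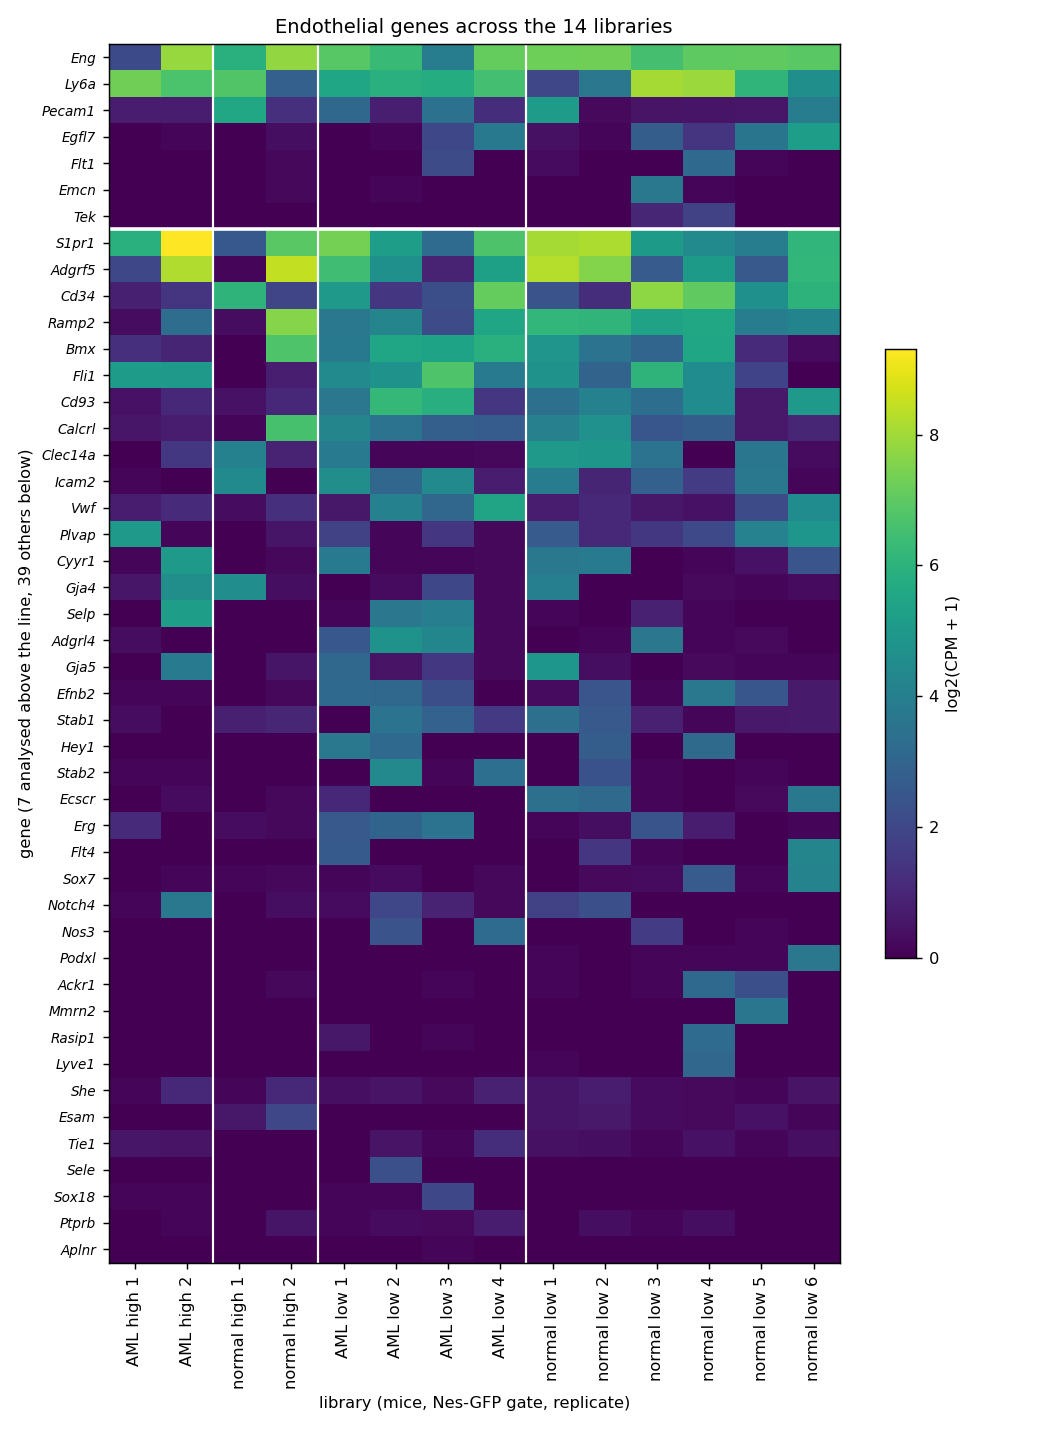
Columns are the 14 libraries by mice, Nes-GFP gate and replicate, rows are genes (the 7 analysed above the white line, 39 other endothelial genes below in order of mean level), and colour is log2(CPM + 1). Eng, Ly6a and S1pr1 are coloured across the whole width, while most other rows show isolated bright cells in different libraries, and Tie1, Ptprb and Aplnr stay dark throughout.

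The pathways of the 3 receptors differed in the same libraries. For the VEGF receptor Flt1, with a median of 0 CPM per kb, the ligands had median levels of 3.24 (Vegfa), 8.35 (Vegfb) and 6.88 (Pgf) CPM per kb and the co-receptor Nrp1 12.7 CPM per kb. For Tek, with a median of 0 CPM per kb, the ligands Angpt1 and Angpt2 had 3.98 and 3.65 CPM per kb, and the partner receptor Tie1 0.0597 CPM per kb. For Eng, at 31.0 CPM per kb, some signalling partners were at 10.5 (Acvrl1, the type I receptor ALK1), 18.9 (Tgfbr2) and 20.5 (Tgfbr3, betaglycan) CPM per kb. Other receptors of that list were lower, at 1.98 (Tgfbr1) and 1.07 (Bmpr2) CPM per kb. Thus ligands were counted in most libraries beside near-absent Flt1 and Tek, whereas Eng was counted together with receptors of its pathway, at uneven levels.

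No gene of the VEGF list (8 genes, 7 tested) or the angiopoietin list (5 genes, 3 tested) was called by edgeR or DESeq2 in any of the 5 comparisons, and 0 had an unadjusted p under 0.05 by either tool. Medians of both lists were below 0 for AML over normal (edgeR, Nes-GFP high: -0.96 for VEGF and -1.30 for angiopoietin genes, beside 0.08 over all genes; Nes-GFP low: -0.88 and -1.04, beside 0.0034). The 12 stromal markers had medians of -0.68 (11 of 12 below 0) in Nes-GFP high and -1.32 (12 of 12 below 0) in Nes-GFP low BMSCs, of which neither edgeR nor DESeq2 called any (unadjusted p under 0.05: edgeR 0 and 0, DESeq2 1 and 2), and their part in the medians of the ligand lists was not tested. Of 18 endoglin pathway genes edgeR called 0, with 1 at an unadjusted p under 0.05 in Nes-GFP high and 1 in Nes-GFP low BMSCs (AML over normal) and 0 in the other comparisons. DESeq2 called 1 of them, Smad9, higher in AML mice in Nes-GFP low BMSCs, where it was at 6.70, 11.5, 0 and 0.163 CPM in AML mice against 0 to 0.107 CPM in normal mice. Of 9 tested genes of the Ly6 family, 10 in all, edgeR called 0 and had 0 at an unadjusted p under 0.05, and DESeq2 called Ly6g, a neutrophil marker, lower in Nes-GFP high than low BMSCs of AML mice. Ly6c1, which shares sequence with Ly6a, was highest at 593 CPM in AML low replicate 3, where Ly6a was at 52.8 CPM, and at 489 CPM in normal low replicate 3, where Ly6a was at 267 CPM.

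The 14 libraries share their amplification and their selection against CD45 and CD31, but fall into 4 groups by mice and Nes-GFP gate. Each list was taken as the summed level of its genes, and the endothelial sum can rest on few of them. In AML high replicate 2, S1pr1 (636 CPM) and Adgrf5 (295 CPM) stood beside a sum of 1100 CPM. Across the libraries Eng went with the interferon response list (Pearson r = 0.70 and Spearman rho = 0.81 of log2 values). It also went with the sum of the 39 other endothelial genes (r = 0.62, rho = 0.79) and with the 12 stromal markers (r = 0.57, rho = 0.53). Eng went against the granulocyte and monocyte markers (r = -0.49, rho = -0.76). Without the 2 libraries farthest from the median of the sum, r for Eng was 0.61, 0.86, 0.44 and -0.43 in the same order of lists. Within the 10 Nes-GFP low libraries it was 0.66, 0.24, 0.79 and -0.63. Ly6a went with the summed granulocyte and monocyte markers (r = 0.73, rho = 0.74, r = 0.78 without the 2 farthest and r = 0.79 within Nes-GFP low) and not with the stromal markers (r = -0.38, rho = -0.26). Pecam1 showed little relation to the granulocyte and monocyte sum (r = 0.01, rho = -0.07) or to the sum of the 39 other endothelial genes (r = -0.10, rho = -0.06). Egfl7 went with the erythroid sum (r = 0.65, rho = 0.63) and not with the sum of the other endothelial genes (r = -0.19, rho = -0.01). These values are descriptions of 32 pairs of a gene and a list, without a test, and CPM of different genes share a library total.

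**Figure D4:**
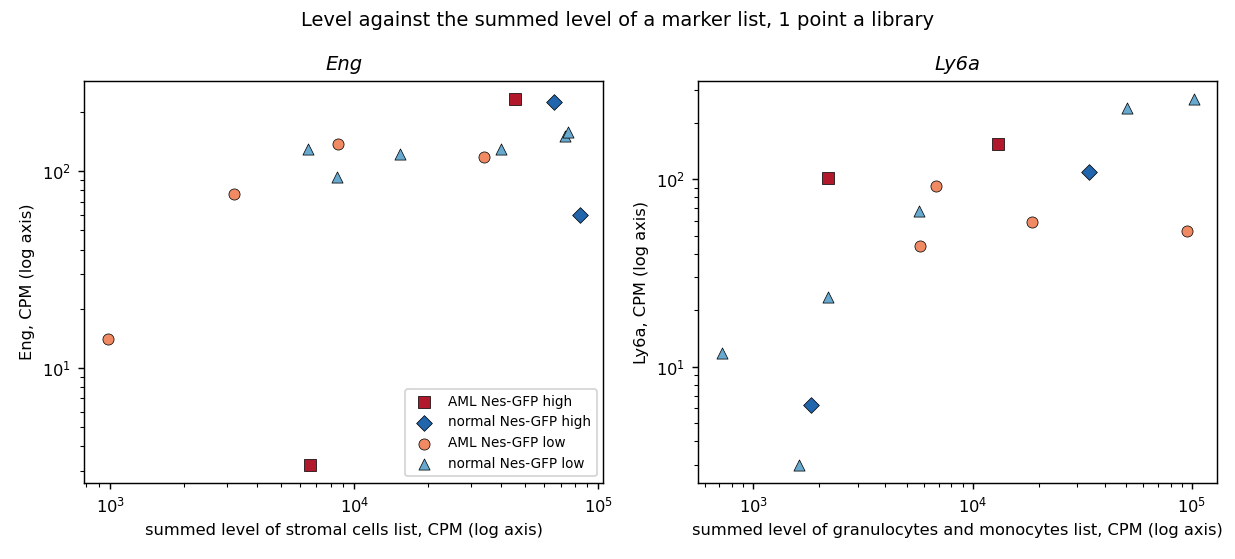
Each point is a library, with CPM of Eng (left) or Ly6a (right) on a vertical log axis against the summed CPM of the stromal list or of the granulocyte and monocyte list on a horizontal log axis, and symbols give the 4 groups. Eng lies between 59.8 and 232 CPM over most of the axis and is low in 2 AML libraries, while Ly6a spans 3 to 267 CPM, with AML low replicate 3 (52.8 CPM) below the other libraries of high sum.

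Genes most like the 7 in their pattern were sought by Spearman correlation over the 14 libraries among 10758 genes whose mean CPM reached 10. The mean log2 level of the 7 genes was followed most closely by Mfap5 (rho = 0.93), a matrix protein of fibroblasts, Cd34 (0.92), Nusap1 (0.86), Txn1 (0.85) and 2810417H13Rik (0.85). The genes closest to Eng were Pawr (0.96), Ctif (0.94) and Il7 (0.93), which encodes a cytokine made by marrow stroma, and those closest to Ly6a were Cdk11b (0.89), Fosl1 (0.89) and Stx11 (0.85). Egfl7, which had 3 counts or fewer in 8 of the 14 libraries, was most like Otud4 (0.93), Bcl11a (0.91) and Ppih (0.89). Pecam1 had no gene above Arpc5l (0.72), followed by Abhd17a (0.71) and Mpdu1 (0.71). For Flt1 (Nsf, Pyurf and Rp9, 0.77 to 0.78), Emcn (4932438A13Rik, Arid4a and Slc11a1, 0.76 to 0.78) and Tek (Col14a1, Tnmd and Igkv3-12, 0.62 each) the values rest on the few libraries with counts. All these rho are the highest among 10758 genes and are descriptions, without a test or a chance level.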

How the data were processed

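RNA was sequenced from 14 libraries prepared by Smart-seq2, which amplifies polyA RNA without molecular identifiers or strand. Per the labels and methods, the authors trimmed reads with Trim Galore 0.4.1, aligned them to mm10 with TopHat2 2.1.0 and used featureCounts for gene counts, deposited raw, and the study used DESeq2 1.14.1. The table also has 2 library columns that match no sample and were not used. Counts of 27099 rows were scaled to CPM on TMM library sizes. Genes passing filterByExpr with a minimum count of 10 (18152) were tested in a fit of all 4 groups by the quasi-likelihood test of edgeR 4.0.16 (two-sided, Benjamini-Hochberg adjustment over all genes, threshold 0.05), tested on simulated data first; DESeq2 1.42.0 and voom of limma 3.58.1 were alternatives. For edgeR, the SE of a log2 fold change was derived as its absolute value over the square root of the F statistic of the test. For DESeq2, SE are those of the fit. Depth is given with the results, and the floor was 3 counts per library. Because libraries were amplified, intervals and floors cover counting error only, and since some libraries pool mice, p-values measure the spread between these libraries.

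The genes named were the 7 with a row of the 10, Nes and Ptprc, the called genes and the 3 highest of lists. The genes most like the members over the libraries were also named. Exceptions are named as such, and some ligands and receptors given per kilobase were further exceptions. The members and lists were chosen with earlier results of these data known. Genes with no row were not analysed here. Positions and transcript sequences came from GENCODE release 21 and promoters from RefSeq. Computations used R 4.3.3, Python 3.11.15, pandas 2.3.3 and scipy 1.17.1.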

Additional observations from a re-analysis of the deposited data

Results flagged for a closer look

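In 5 of the 14 sets of a gene and a Nes-GFP low group, 1 library stood apart from the rest by Dixon's criterion. Chance meets it in about 1 in 20 sets of normally distributed values. A set with counts in 1 library alone always meets it, and a set without counts never does. The 5 sets can therefore not be set against that rate. Flt1 was at 3.42 CPM in AML low replicate 3, with 0 CPM in the other AML low libraries. Flt1 was at 7.98 CPM in normal low replicate 4, with 0.214 CPM in the next. Emcn was at 12.4 CPM in normal low replicate 3, with 0.0917 CPM in the next. Emcn at 0.1 CPM in AML low replicate 2 is a single count beside 0 counts in the others of its group. Egfl7 was at 36.7 CPM in normal low replicate 6, with 11.4 CPM in the next. AML low replicate 3 and normal low replicates 3 and 4 are the libraries with the most Ptprc (447, 476 and 483 CPM), and normal low replicate 6 had 3.95 CPM of Ptprc.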

How the results depend on the processing

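No setting called any of the 7 genes it tested in any comparison (Tek and Emcn were tested only without a filter or with a Nes-GFP high library left out). The number of all genes called, 0 by edgeR in each comparison, was 1593 (AML over normal, Nes-GFP high), 118 (Nes-GFP low), 1090 (high over low, AML), 1737 (high over low, normal) and 768 (difference of the AML effect) by DESeq2, 1 by voom with quality weights for high over low in AML mice, and 1 for AML over normal in Nes-GFP high BMSCs with a mean of at least 10 CPM; the cause was not tested. Leaving out one library gave 0 to 194 (AML over normal, Nes-GFP high), 0 to 1 (high over low, AML), 0 to 189 (high over low, normal) and 0 to 144 (difference), with each of the 3 largest counts reached without normal high replicate 2. DESeq2 gave adjusted p no lower than 0.0688 for the 4 genes to which it gave one (Pecam1, Eng, Egfl7 and Ly6a).

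Directions that turned were those of uncalled log2 fold changes. Leaving out one library gave -5.48 to 0.933 for Eng (AML over normal, Nes-GFP high), -4.73 to 1.45 (Eng, high over low, AML), -1.06 to 0.627 (Eng, high over low, normal), -1.35 to 0.625 for Pecam1 (AML over normal, Nes-GFP low), -2.71 to 2.92 (Pecam1, high over low, normal), -3.07 to 0.03 for Egfl7 (AML over normal, Nes-GFP low) and -4.17 to 0.155 for Ly6a (high over low, normal). Without AML high replicate 1, Eng was 0.697 (AML over normal, Nes-GFP high). Voom gave 1.66 for Pecam1 (AML over normal, Nes-GFP low), -0.816 for Eng (high over low, AML) and -0.165 (high over low, normal). Without the 3 libraries with the most Ptprc, added after seeing the data, Ly6a was 1.30 (AML over normal, Nes-GFP low), 1.13 (high over low, normal) and -0.154 (difference of the AML effect).

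The replicate numbers share only a number: 4 of 14 same-numbered pairs had a correlation of deviations over 0.1 (range -0.164 to 0.430). The fit with the replicate block called 0 genes in each comparison, and with it the log2 fold change was 0.984 for Pecam1 and 0.417 for Ly6a (AML over normal, Nes-GFP low), -0.554 for Eng (high over low, AML), and -0.746 for Eng and 0.946 for Ly6a (high over low, normal). With plain library totals the mean summed level of the 7 genes in Nes-GFP high BMSCs from normal mice was 199 CPM. The comparison of the difference of the AML effect could not be fitted on only the groups compared, since it takes all 4.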
